A study of Homo sapiens with 18 samples.

Results

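Hepatocyte growth factor (HGF) was added to head and neck squamous cell carcinoma (HNSCC) cell lines, and the mRNA response of FaDu cells was set against that of SCC-9 cells. The comparison rests on 12 of the 18 libraries of the series: 3 of untreated FaDu (control), 3 of FaDu with HGF, 3 of untreated SCC-9 and 3 of SCC-9 with HGF. The other 6 libraries, of Detroit 562 cells, entered the fit only to share the estimate of the spread and the filter on low counts, and their responses are given at the end for the genes that differed. For each gene the quantity tested was the log2 fold change with HGF in FaDu minus the log2 fold change with HGF in SCC-9, called here the difference in log2 response. A positive value means a higher response in FaDu, which can come from a rise in FaDu, a fall in SCC-9 or both.

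FaDu is an established line from a primary tumour of the hypopharynx and SCC-9 one from a primary tumour of the tongue. The HGF groups received 50 ng/mL HGF for 16 h according to the sample records and the study's methods, whereas the series record gives 48 h, and the control groups were left untreated. Both arms of FaDu were grown in MEM-α. Both arms of SCC-9 were grown in DMEM F12 to which 400 ng/mL hydrocortisone was added. Tumour site, medium and hydrocortisone therefore changed together with the line, and their parts in any difference between FaDu and SCC-9 cannot be told apart. Each line stands for 1 tumour, and the replicates were samples of the same line.

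The 12 libraries held 37644764 to 44003970 counts in protein-coding genes, with a median of 40317241. Of 19901 genes in the table, 15475 passed the filter on low counts and were tested. The markers of squamous epithelium (KRT5, KRT14, KRT6A, KRT17, TP63, SFN, CDH1 and EPCAM) were all detected, with summed normalized counts of 210400 to 463300 in FaDu and 327200 to 416000 in SCC-9. A normalized count is the count of a gene scaled to a common library size, so that values of 1 gene can be compared between libraries. Fibroblast markers summed to 137 to 272 in FaDu and 2422 to 3985 in SCC-9, most of it COL1A1. SCC-9 controls also held mean normalized counts of 428 for COL1A2 and 65.6 for DCN, while POSTN was at 0 in every library. The 5 leukocyte markers summed to 871 to 1590 in FaDu and 2508 to 2633 in SCC-9, nearly all of it CD68 and CD14, while PTPRC and CD3E reached no more than 4 counts in any of the 12 libraries. The 4 endothelial markers summed to 63 to 334 in FaDu, mostly VWF and CDH5, and 36.4 to 66.7 in SCC-9. The part of other cell types in the results was not tested.

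HGF is a secreted growth factor that binds the receptor tyrosine kinase MET on epithelial cells. Active MET recruits adaptor proteins and switches on the RAS-ERK and PI3K-AKT pathways, which drive scattering, migration and invasion of carcinoma cells. ERK signalling is restrained by proteins that its own target genes encode, among them the DUSP phosphatases and the Sprouty proteins. Such target genes are commonly read as a measure of how strongly the pathway answers.

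One library stood apart. Genes with at least 500 normalized counts in FaDu controls and at most 5 counts in every other SCC-9 library numbered 12, and all 12 were detected in SCC-9 HGF replicate 3, with 230 counts in all. Their summed level there was 1.77% of the level in FaDu, with a median of 1.79% per gene. In the other 5 SCC-9 libraries the corresponding share was at most 0.12%, over 2 marker genes. In the FaDu libraries, SCC-9 marker genes stood between 0.0531% and 0.107% of their SCC-9 level. The source of the FaDu signal was not tested. Results are therefore given with and without this library, and the share of a gene's count in it that 1.77% of the FaDu level would make is given where it was above 10%.

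The responses of FaDu and SCC-9 differed in 204 genes (1.32% of the genes tested) at an adjusted p below 0.1. The response was higher in FaDu in 125 genes (0.808%) and lower in 79 (0.511%). The test was edgeR's quasi-likelihood test, blocked by the replicate number of each line, so that each HGF library was set against the control of the same number, and Benjamini-Hochberg adjustment. These calls rest on the block. Without it 0 genes were called, with 337 at an unadjusted p under 0.05, among them 60 of the 125 and 42 of the 79. A DESeq2 Wald test with the same block called 225 genes, of which 176 were among the 204. Without SCC-9 HGF replicate 3 edgeR called 63 genes, all of them among the 204: 50 with a higher response and 13 with a lower response in FaDu. The sign of the difference was the same without that library in 125 of 125 and in 75 of 79 genes. Leaving out another SCC-9 library also lowered the count. It was 90 or 91 without control 1 or HGF 1, 52 without control 2 or HGF 2, and 62 without control 3. In each of these fits 2 SCC-9 pairs remained, and the part of the FaDu signal in the fall to 63 was not tested. The study's methods state that the stimulation and RNA isolation were done again 2 times, but neither they nor the labels say how the replicate numbers relate to these repeats. P-values of the blocked test measure the spread of the response between the pairs of a line, with an estimate of the spread shared over the 18 libraries.

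**Figure D1:**
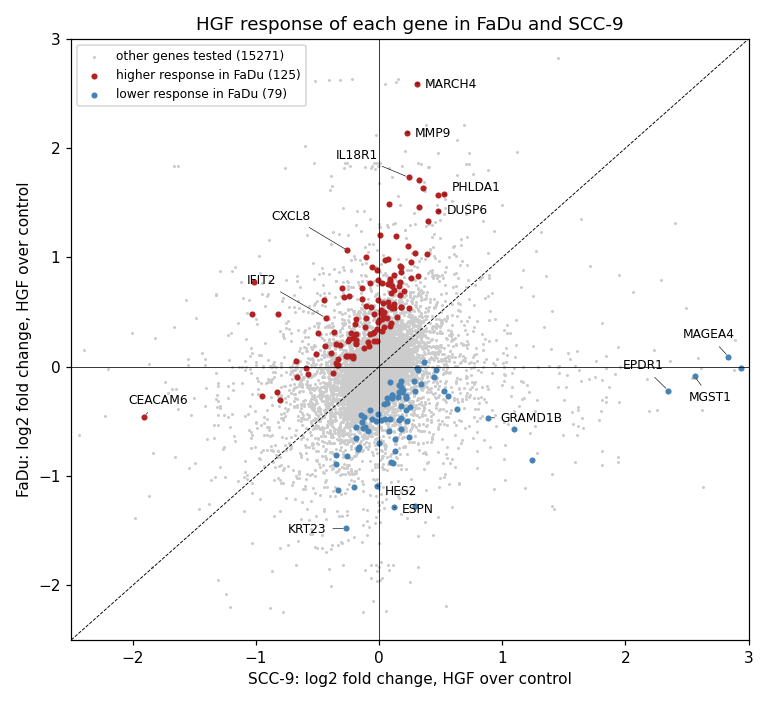
Each point is 1 of 15475 genes, with the log2 fold change with HGF over control in SCC-9 on the x axis and in FaDu on the y axis. Red points are the 125 genes with a higher response in FaDu, blue points the 79 with a lower response, and the dashed line marks equal responses. Red points such as MARCH4, MMP9 and DUSP6 lie higher on the FaDu axis than on the SCC-9 axis, and the blue points at the far right (EPDR1, MGST1, MAGEA4) are genes with FaDu signal in SCC-9 HGF replicate 3; 82 genes, 4 of them called, lie outside the axes.

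In single lines, HGF raised 310 genes (2%) and lowered 557 (3.6%) in FaDu, and raised 87 (0.562%) and lowered 218 (1.41%) in SCC-9. A call in 1 line needed an adjusted p below 0.1 and a change of 0.4 or more on the log2 scale. Without SCC-9 HGF replicate 3, which leaves 2 pairs, the SCC-9 counts were 15 and 54, and many SCC-9 calls given here were lost. Of the 125 genes with a higher response in FaDu, 75 rose in FaDu and 14 fell in SCC-9, and of the 79 with a lower response 39 fell in FaDu and 13 rose in SCC-9. Without that library the SCC-9 counts were 7 of the 125 falling and 2 of the 79 rising. Of the 87 genes raised in SCC-9, 11 had over 50% of their count in SCC-9 HGF replicate 3 expected from FaDu signal. PRAME, LDOC1, SPG20, IVD, MAGEA4, MGST1 and EPDR1, all among the 13 above, were such genes. By these calls 71 of the 125 rose in FaDu alone and 39 of the 79 fell in FaDu alone. Another 37 of the 125 and 27 of the 79 were called in neither line. A call on the difference had no minimum size, and some of these genes had a response that passed on adjusted p but stayed under 0.4. Examples were DDX58 in FaDu, at 0.31 (adjusted p = 0.00327), and MMP14 in FaDu, at -0.22 (adjusted p = 0.0201). The median difference in log2 response was 0.58 over the 125 genes and -0.53 over the 79, against -0.005 over all genes tested. The 3 FaDu ratios of HGF to control all lay above the 3 SCC-9 ratios in 125 of 125 genes, and all below in 73 of 79. Over all genes tested they lay above in 8.81% and below in 9.29%. The 125 and the 79 genes were called on these same pairs, so their separate ratios follow largely from the selection and add no evidence. For a single gene with separate ratios, the exact two-sided permutation test of the 3 against the 3 gave p = 0.1, the smallest it can give.

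Several target genes and feedback inhibitors of ERK rose, some of them further in FaDu. Of 21 genes in the list, 10 rose in FaDu and 7 in SCC-9 (1 without SCC-9 HGF replicate 3), with 0 falling in either. Over all genes tested 2% rose in FaDu and 0.562% in SCC-9. On the difference edgeR called 6 of the list higher in FaDu (3 without SCC-9 HGF replicate 3) and 0 lower, while DESeq2 called 5 and 1. The edgeR shares over all genes tested were 0.808% higher and 0.511% lower. The median difference over the 21 was 0.33, against -0.005 over all genes tested, and 18 of 21 differences were positive. DUSP6 (ENSG00000139318.7, chromosome 12 from 89347232 to 89353271) encodes the phosphatase that switches ERK off in the cytoplasm. DUSP6 had normalized counts of 306, 366 and 444 in FaDu controls 1 to 3 and 909, 744 and 1380.1 with HGF, and of 2394, 2301 and 2042 in SCC-9 controls and 3228, 2989.5 and 3137 with HGF. Every HGF library lay above every control of its line, and all 6 FaDu libraries lay below all 6 of SCC-9. FaDu rose by 1.42 and SCC-9 by 0.48 on the log2 scale, with a difference of 0.95 (SE 0.14, adjusted p = 0.00576) and of 1.03 without SCC-9 HGF replicate 3 (adjusted p = 0.0115).

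PHLDA1 (ENSG00000139289.13, chromosome 12 from 76025447 to 76033932), a pleckstrin homology domain protein induced by growth factors, followed the same course. PHLDA1 had normalized counts of 199, 450.1 and 536 in FaDu controls 1 to 3 and 840.4, 954 and 1694 with HGF, and of 4341, 3722 and 2701 in SCC-9 controls and 6076, 4752 and 4539 with HGF. Groups within a line were again separate, and the lowest SCC-9 control stood above the highest FaDu value. It rose in both lines (1.58 in FaDu and 0.53 in SCC-9) with a difference of 1.05 (SE 0.20, adjusted p = 0.0264). IER3 (ENSG00000137331.11, chromosome 6 from 30743199 to 30744554), an early response gene that acts on cell survival, rose in FaDu. IER3 had normalized counts of 514, 537 and 676 in FaDu controls 1 to 3 and 1262, 972 and 1505 with HGF, and of 5867, 6042 and 5358 in SCC-9 controls and 6958, 6873 and 6489 with HGF. Each SCC-9 pair also went up, by less than any FaDu pair. FaDu changed by 1.11 on the log2 scale (adjusted p = 1.37e-05) and SCC-9 by 0.24 (adjusted p = 0.113), and the difference was 0.87 (SE 0.12, adjusted p = 0.00286). DUSP7, a phosphatase related to DUSP6, differed by 0.43 (adjusted p = 0.0979). Of the other members, DUSP4, SPRY4, ETV4 and ETV5 rose in both lines with no call on the difference, from 0.023 for ETV5 (95% interval -0.41 to 0.46) to 0.92 for SPRY4 (95% interval 0.32 to 1.51). DUSP5, a nuclear ERK phosphatase, went the other way, with -0.011 in FaDu and a rise of 0.55 in SCC-9 (adjusted p = 0.0201), and its difference of -0.56 (95% interval -0.93 to -0.20) was not called by edgeR (adjusted p = 0.2).

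EGR1 and JUNB, transcription factor genes switched on within minutes of ERK activation, were called on the difference without a call in either line. JUNB had log2 fold changes of 0.067 in FaDu and -0.34 in SCC-9 (difference 0.40, adjusted p = 0.0275), and EGR1 of 0.31 and -0.36 (difference 0.68, adjusted p = 0.079). The fall of JUNB in SCC-9 (adjusted p = 0.00468, or 0.133 without SCC-9 HGF replicate 3) was under the minimum size for a call. The same held for EGR1 in FaDu (adjusted p = 0.0928). JUNB had normalized counts of 9641, 5644 and 5617 in FaDu controls 1 to 3 and 9847, 6568 and 5437 with HGF, and of 4134, 5280.4 and 5916 in SCC-9 controls and 3399, 4442 and 4241 with HGF. The 3 SCC-9 pairs all went down, and 2 of the 3 FaDu pairs went up. With 1 library left out in turn, DUSP6 and IER3 were called in all 12 fits. PHLDA1 was not called without FaDu 1, FaDu 3 or SCC-9 2 (highest adjusted p 0.159), JUNB was not called without FaDu 1 or SCC-9 3 (highest adjusted p 0.15) and DUSP7 was not called without FaDu 1, FaDu 3, SCC-9 1, SCC-9 2 or SCC-9 3 (highest adjusted p 0.439), while EGR1 was called in none of the 12 (highest adjusted p 0.248). In a blocked fit the partner of a library left out no longer informs the response, so either library of a number has nearly the same effect.

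**Figure D2:**
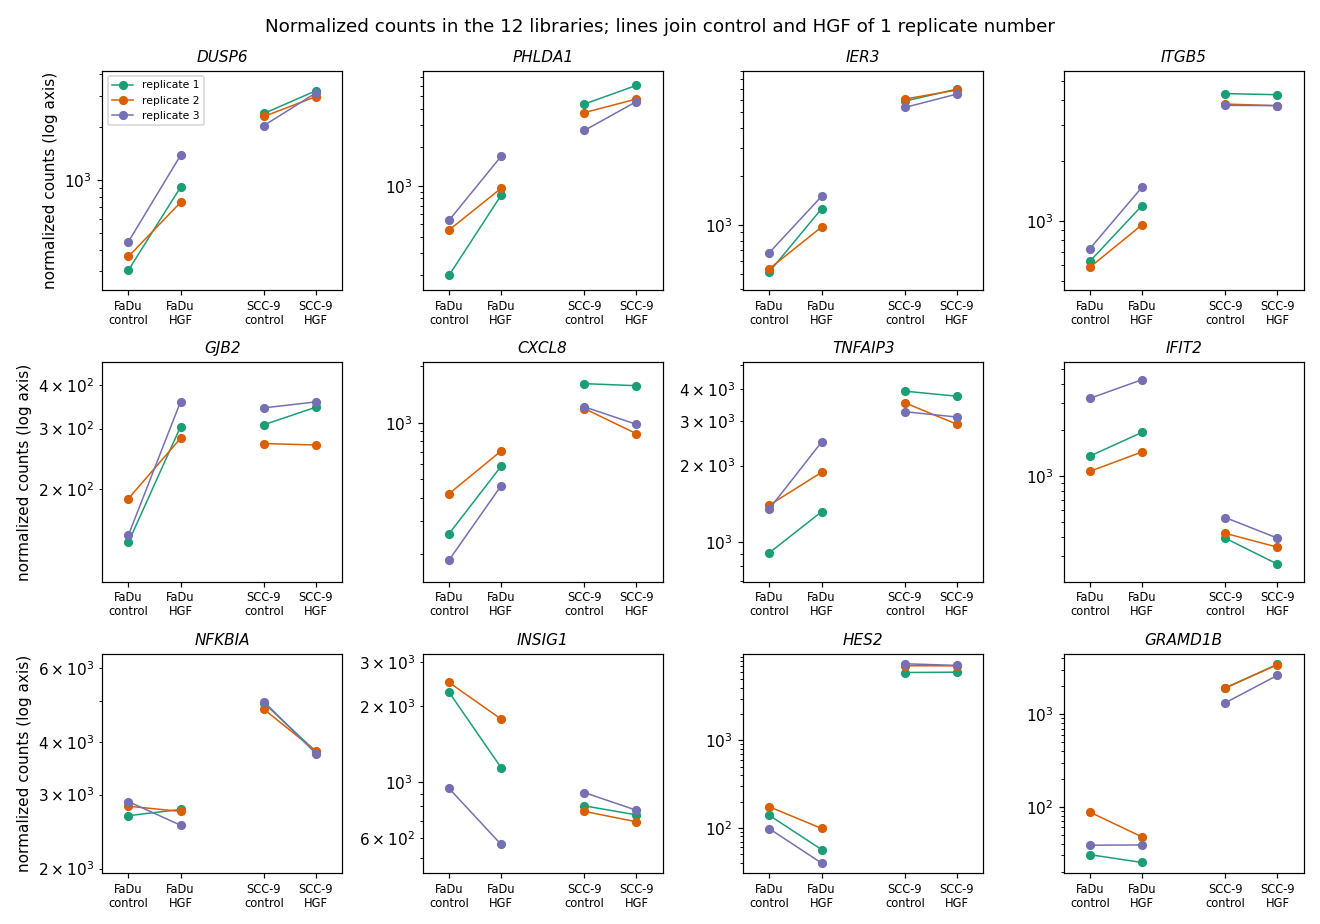
Normalized counts (log axis) of 12 genes in the 12 libraries, with FaDu on the left and SCC-9 on the right of each panel. A line joins the control and the HGF library of 1 replicate number (green 1, orange 2, purple 3). DUSP6, PHLDA1 and IER3 climb more steeply in FaDu from a lower level, GJB2 climbs in FaDu and moves less in SCC-9, ITGB5, CXCL8 and TNFAIP3 climb in FaDu while the SCC-9 lines stay level or dip, IFIT2 climbs in FaDu and dips in SCC-9, NFKBIA dips in SCC-9, INSIG1 and HES2 dip in FaDu and GRAMD1B climbs in SCC-9.

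Several genes for adhesion to the basement membrane responded more in FaDu. Of 14 genes for integrins and laminin-332, 5 were called with a higher response (2 without SCC-9 HGF replicate 3) and 0 with a lower one. The shares over all genes tested were 0.808% and 0.511%, and the median difference of the list was 0.25. By the calls 6 of the list rose in FaDu against 0 in SCC-9, and the median log2 fold change was 0.35 and 0.15. Over all genes tested 2% rose in FaDu and 0.562% in SCC-9. In SCC-9, ITGA2 had 0.31 (adjusted p = 0.0411) and ITGA6 0.24 (adjusted p = 0.0163), under the minimum size, while ITGB4 had -0.043. Without SCC-9 HGF replicate 3 the adjusted p was 0.402 for ITGA2 and 0.295 for ITGA6.

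ITGB5 (ENSG00000082781.11, chromosome 3 from 124761948 to 124901418), the β5 subunit of a vitronectin receptor, had a response in FaDu alone. ITGB5 had normalized counts of 630.2, 588 and 728 in FaDu controls 1 to 3 and 1194, 958 and 1475 with HGF, and of 4322, 3832 and 3774 in SCC-9 controls and 4266, 3759 and 3766 with HGF. FaDu controls and HGF libraries did not overlap, whereas each SCC-9 pair moved little. On the log2 scale FaDu changed by 0.89 and SCC-9 by -0.016, a difference of 0.90 (SE 0.11, adjusted p = 0.00218). ITGA2, the α2 subunit of a collagen receptor, differed by 0.51 (adjusted p = 0.0664), ITGA6, the α6 subunit of laminin receptors, by 0.29 (adjusted p = 0.0922) and ITGB4, its partner in hemidesmosomes, by 0.36 (adjusted p = 0.0879). With 1 library left out, ITGB5 was called in all 12 fits, and the other 3 integrins in 2 of 12, those without FaDu control 2 or HGF 2. Their highest adjusted p was 0.274 for ITGA2, 0.433 for ITGA6 and 0.293 for ITGB4, without any of FaDu 1, FaDu 3, SCC-9 1, SCC-9 2 or SCC-9 3.

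The plasminogen system and the matrix metalloproteinases split. Of 16 genes, 2 were called higher (MMP9 among them) and 2 lower (PLAT and MMP14) in their FaDu response. The shares over all genes tested were 0.808% and 0.511%, and the median difference of the list was 0.39. In FaDu 5 rose and 3 fell, against 2% and 3.6% of all genes tested, and in SCC-9 1 fell, against 1.41%.

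MMP9, gelatinase B, had low counts in FaDu. MMP9 had normalized counts of 13.3, 7.05 and 14.1 in FaDu controls 1 to 3 and 50.2, 12.1 and 96 with HGF, and of 151, 117 and 102 in SCC-9 controls and 174, 137 and 121 with HGF. Each FaDu pair rose, but FaDu HGF replicate 2 lay below 2 of the FaDu controls. The difference was 1.92 (SE 0.32, adjusted p = 0.0149), and 1.36 at the lowest with 1 library left out. MMP9 was not called without FaDu 3 (highest adjusted p 0.131). PLAT, tissue plasminogen activator, fell in FaDu, with log2 fold changes of -0.48 there and 0.044 in SCC-9 (difference -0.53, adjusted p = 0.0294), and MMP14, a membrane-bound collagenase, had -0.22 and 0.19 (difference -0.41, adjusted p = 0.0246). PLAT was not called without FaDu 1, SCC-9 2 or SCC-9 3 (highest adjusted p 0.191) and MMP14 was not called without FaDu 1 or SCC-9 3 (highest adjusted p 0.144). Urokinase (PLAU) gave no call on the difference, at -0.027 (95% interval -0.27 to 0.22).

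The largest positive differences included secreted factors and cytokine receptors. VEGFC (ENSG00000150630.3, chromosome 4 from 176683538 to 176792727), the growth factor of lymphatic vessels, rose in FaDu and not in SCC-9. VEGFC had normalized counts of 156, 166 and 806 in FaDu controls 1 to 3 and 548, 334 and 1562 with HGF, and of 481, 387 and 361 in SCC-9 controls and 451, 383 and 396 with HGF. Replicate 3 of FaDu stood several times above the other two numbers in both arms, and each FaDu pair rose. Its log2 fold change was 1.21 in FaDu and 0.0042 in SCC-9, with a difference of 1.20 (SE 0.18, adjusted p = 0.00705). APLN (ENSG00000171388.11, chromosome X from 129645259 to 129654937), which encodes the peptide hormone apelin, was low in FaDu and high in SCC-9. APLN had normalized counts of 11.4, 8.06 and 31.1 in FaDu controls 1 to 3 and 32.5, 23.2 and 86.3 with HGF, and of 1197, 1062 and 811 in SCC-9 controls and 1217, 1097 and 916 with HGF. Its difference was 1.41 (SE 0.21, adjusted p = 0.00693). Both genes were called in all 12 fits with 1 library left out.

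MARCH4 (ENSG00000144583.4, chromosome 2 from 216257865 to 216372027) encodes a ubiquitin ligase of the membrane. It had the largest positive difference among called genes with separate pairs, 2.29 (SE 0.26, adjusted p = 0.00195). MARCH4 had normalized counts of 2.86, 3.02 and 22.6 in FaDu controls 1 to 3 and 14.9, 11.1 and 149 with HGF, and of 518, 341 and 275 in SCC-9 controls and 601, 391 and 397 with HGF. The FaDu controls of numbers 1 and 2 rested on about 3 counts each, and number 3 stood far above them in both arms. MARCH4 was not called without FaDu 3 (highest adjusted p 0.177). ZBED2, a DNA-binding protein of keratinocytes, was likewise near the floor in FaDu controls (4.03 to 10.4 normalized counts) and between 1692 and 2152 in SCC-9 controls, with a difference of 1.39 (adjusted p = 0.076), and ZBED2 was not called without FaDu 1, FaDu 3, SCC-9 1 or SCC-9 2 (highest adjusted p 0.406).

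IL18R1 and IL1R2, the receptor of interleukin 18 and the decoy receptor of interleukin 1, rose in FaDu by 1.73 and 1.63 on the log2 scale, against 0.24 and 0.36 in SCC-9. IL18R1 had normalized counts of 138, 205 and 346 in FaDu controls 1 to 3 and 764, 503 and 998 with HGF, and of 152, 129 and 123 in SCC-9 controls and 165, 129 and 186 with HGF. FaDu groups did not overlap, and SCC-9 groups lay within 123 to 186. The difference was 1.49 (SE 0.27, adjusted p = 0.0237) for IL18R1 and 1.27 (SE 0.27, adjusted p = 0.0451) for IL1R2. IL18R1 overlaps IL1RL1 on the same strand and reads within both genes were counted for both, so its value is uncertain in its attribution; IL1RL1 itself differed by 1.53 (adjusted p = 0.38). IL18R1 was not called without SCC-9 1 or SCC-9 2 (highest adjusted p 0.13) and IL1R2 was not called without FaDu 1, FaDu 3, SCC-9 1, SCC-9 2 or SCC-9 3 (highest adjusted p 0.294).

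A few of the largest positive differences came at least in part from the SCC-9 side. RASSF10, a member of the RAS association domain family, fell in SCC-9 by 1.03 on the log2 scale and had 0.48 in FaDu (difference 1.51, adjusted p = 0.04). CEACAM6, an adhesion molecule of epithelial surfaces, fell in both lines, by 1.91 in SCC-9 and 0.46 in FaDu (difference 1.45, adjusted p = 0.034), from SCC-9 controls of 6.71, 41 and 25.5. Its share of expected FaDu signal in SCC-9 HGF replicate 3 was 12.7%, and it overlaps another annotated gene on the same strand. HIST1H3H, a histone H3 gene, fell in SCC-9 by 0.82 (difference 1.31, adjusted p = 0.0431). KIAA1644, with 23.1% expected FaDu signal in that library, differed by 1.79 (adjusted p = 0.0464). KIAA1644 rose in FaDu by 0.78 (adjusted p = 0.0113), and its SCC-9 value of -1.01 was not called (adjusted p = 0.143). The 4 were called in 4 or 6 of the 12 fits with 1 library left out, with the highest adjusted p at 0.236 for RASSF10, 0.402 for CEACAM6, 0.251 for HIST1H3H and 0.286 for KIAA1644, and none of them without SCC-9 HGF replicate 3 (differences 1.46, 1.49, 1.32 and 1.64).

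Inflammatory and interferon genes are the next group. Nuclear factor kappa B (NF-kB) switches on cytokine genes together with its own inhibitors, and interferon-stimulated genes carry a shared element (ISRE) in their promoters that is bound by interferon-activated factors. The promoters of 4 called genes of these lists are shown because their letters hold the motifs that give the lists their names, or AP-1, the element bound by FOS and JUN proteins downstream of ERK. They are 250 bases before the annotated start, on the plus strand, from RefSeq on GRCh38.p14, with the motif matches in capitals: TGANTCA for AP-1 in CXCL8, GGG and TTCC with any 3 bases between them for NF-kB in TNFAIP3, and GAAA, any 2 bases and GAAA for the ISRE in IFIT1 and IFIT3. Each was searched on both strands, and in TNFAIP3, IFIT1 and IFIT3 the letters shown are the reverse complement. The motifs did not overlap each other in these 4 windows. The start used is that of RefSeq, and in all 4 genes it lies downstream of the gene start that goes with the deposited counts. Each window therefore runs into the gene extent used for counting, and both TNFAIP3 matches lie within that extent. Only exact matches to the patterns are in capitals, so a lack of capitals does not show that an element is absent. The CXCL8 window holds a stretch in small letters that departs from the NF-kB pattern in its first base only.
CXCL8, chr4:73740319-73740568: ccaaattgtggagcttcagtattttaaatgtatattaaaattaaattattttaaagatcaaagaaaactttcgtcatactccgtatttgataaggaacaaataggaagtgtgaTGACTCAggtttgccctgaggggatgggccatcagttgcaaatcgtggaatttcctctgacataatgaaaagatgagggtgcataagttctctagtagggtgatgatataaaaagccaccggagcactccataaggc
TNFAIP3, chr6:137867009-137867258: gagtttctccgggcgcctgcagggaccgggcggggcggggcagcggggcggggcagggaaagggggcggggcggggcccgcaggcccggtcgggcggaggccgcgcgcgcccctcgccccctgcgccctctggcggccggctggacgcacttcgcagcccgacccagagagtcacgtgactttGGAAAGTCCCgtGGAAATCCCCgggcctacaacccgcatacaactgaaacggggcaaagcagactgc
IFIT1, chr10:89392373-89392622: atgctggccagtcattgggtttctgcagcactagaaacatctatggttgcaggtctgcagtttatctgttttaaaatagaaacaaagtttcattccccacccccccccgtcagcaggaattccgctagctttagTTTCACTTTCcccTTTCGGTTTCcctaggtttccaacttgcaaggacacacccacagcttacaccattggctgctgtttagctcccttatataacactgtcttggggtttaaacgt
IFIT3, chr10:89327747-89327996: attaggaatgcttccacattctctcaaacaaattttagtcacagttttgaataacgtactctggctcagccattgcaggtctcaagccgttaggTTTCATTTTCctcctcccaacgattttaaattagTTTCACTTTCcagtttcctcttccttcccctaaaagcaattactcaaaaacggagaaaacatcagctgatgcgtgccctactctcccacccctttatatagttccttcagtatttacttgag

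A promoter was found in the table for 11500 of the 15475 genes tested, for 89 of the 125 genes with a higher response in FaDu and for 60 of the 79 with a lower one. The AP-1 letters were in 9 of 89 (10.1%) and 1 of 60 (1.67%), against 496 of 11500 (4.31%). The NF-kB letters were in 8 (8.99%) and 2 (3.33%), against 749 (6.51%), and the ISRE letters in 3 (3.37%) and 0, against 277 (2.41%). These shares are descriptions of letters in a short window, with no test.

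CXCL8 (ENSG00000169429.10, chromosome 4 from 73740506 to 73743716), which encodes interleukin 8, the chemokine that draws neutrophils, rose in FaDu alone. CXCL8 had normalized counts of 256, 419 and 185 in FaDu controls 1 to 3 and 587, 708 and 462 with HGF, and of 1618, 1191 and 1217 in SCC-9 controls and 1577, 875 and 981 with HGF. Every FaDu HGF library lay above every FaDu control, and each SCC-9 pair went down. Its response was 1.06 in FaDu and -0.26 in SCC-9 (adjusted p = 0.179 for the latter), and the difference 1.32 (SE 0.15, adjusted p = 0.00195). TNFAIP3 (ENSG00000118503.14, chromosome 6 from 137867188 to 137883312), the ubiquitin-editing protein that shuts NF-kB off, rose in FaDu. TNFAIP3 had normalized counts of 907, 1398 and 1352 in FaDu controls 1 to 3 and 1314, 1880.2 and 2474 with HGF, and of 3927, 3534 and 3259 in SCC-9 controls and 3752, 2908 and 3106 with HGF. FaDu HGF replicate 1 lay within the range of the FaDu controls, while each pair rose. The difference was 0.75 (SE 0.16, adjusted p = 0.04).

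NFKBIA, the inhibitor that holds NF-kB in the cytoplasm, and SOD2, mitochondrial superoxide dismutase, had a higher response in FaDu without a rise there. NFKBIA had normalized counts of 2672, 2814 and 2886 in FaDu controls 1 to 3 and 2765, 2735 and 2536 with HGF, and of 4958, 4789 and 4994 in SCC-9 controls and 3794, 3809 and 3755 with HGF. The SCC-9 groups were separate with controls above HGF, and the FaDu groups overlapped. NFKBIA had log2 fold changes of -0.059 in FaDu and -0.38 in SCC-9 (difference 0.32, adjusted p = 0.0497), and SOD2, which overlaps another annotated gene on the same strand, of 0.015 and -0.34 (difference 0.35, adjusted p = 0.0264); the SCC-9 values were under the minimum size for a call. Of 21 genes in the NF-kB list, 4 were called higher and 0 lower, against 0.808% and 0.511% of all genes tested. The median difference of the list was 0.27. In FaDu 4 of the list rose and 1 fell, and in SCC-9 1 rose and 2 fell. Over all genes tested 2% rose and 3.6% fell in FaDu, and 0.562% rose and 1.41% fell in SCC-9. CXCL8 was called in all 12 fits with 1 library left out. TNFAIP3 was not called without FaDu 1, FaDu 3, SCC-9 1, SCC-9 2 or SCC-9 3 (highest adjusted p 0.192), NFKBIA was not called without FaDu 1, SCC-9 1, SCC-9 2 or SCC-9 3 (highest adjusted p 0.27) and SOD2 was not called without FaDu 1, SCC-9 2 or SCC-9 3 (highest adjusted p 0.155).

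IFIT2 (ENSG00000119922.9, chromosome 10 from 89283694 to 89309276), an interferon-induced protein that binds foreign RNA, was the only gene of the table called in both lines in opposite directions with all libraries, and no gene was without SCC-9 HGF replicate 3. IFIT2 had normalized counts of 1354, 1075 and 3231 in FaDu controls 1 to 3 and 1935, 1442 and 4279.9 with HGF, and of 392, 422 and 535 in SCC-9 controls and 265, 343 and 393 with HGF. It rose in each FaDu pair and fell in each SCC-9 pair, although the FaDu groups overlapped because replicate 3 stood above the others in both arms. FaDu rose by 0.45 on the log2 scale (adjusted p = 0.00062) and SCC-9 changed by -0.43 (adjusted p = 0.00916, or 0.143 without that library), a difference of 0.88 (SE 0.11, adjusted p = 0.00218). It was called in all 12 fits with 1 library left out, with differences of 0.83 to 0.96.

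Its neighbours IFIT1 and IFIT3 and the RNA sensor DDX58 (RIG-I) had the same signs, with no call in either line under the minimum size. IFIT1 had 0.20 in FaDu and -0.35 in SCC-9 (difference 0.56, adjusted p = 0.051), IFIT3 0.24 and -0.26 (difference 0.49, adjusted p = 0.0606), and DDX58 0.31 and -0.23 (difference 0.53, adjusted p = 0.00693). The share of expected FaDu signal in SCC-9 HGF replicate 3 was 10% for IFIT2, 11.6% for IFIT1 and 10.8% for IFIT3 and the differences without that library were 0.89, 0.48 and 0.44. IFIT1 was not called without FaDu 1, SCC-9 1 or SCC-9 3 (highest adjusted p 0.304) and IFIT3 was not called without FaDu 1, SCC-9 1, SCC-9 2 or SCC-9 3 (highest adjusted p 0.328), while DDX58 was called in all 12 fits. Of 25 genes in the interferon list 4 were called higher and 0 lower, against 0.808% and 0.511% of all genes tested. The median difference of the list was 0.12. Within each line more of the list fell than rose: 5 fell and 1 rose in FaDu, and 4 fell and 0 rose in SCC-9. Over all genes tested 3.6% fell and 2% rose in FaDu, and 1.41% fell and 0.562% rose in SCC-9. CXCL10, the chemokine that draws T cells, fell in both lines (-2.08 in FaDu and -1.24 in SCC-9), with no call on the difference (-0.84, 95% interval -2.46 to 0.78).

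**Figure D3:**
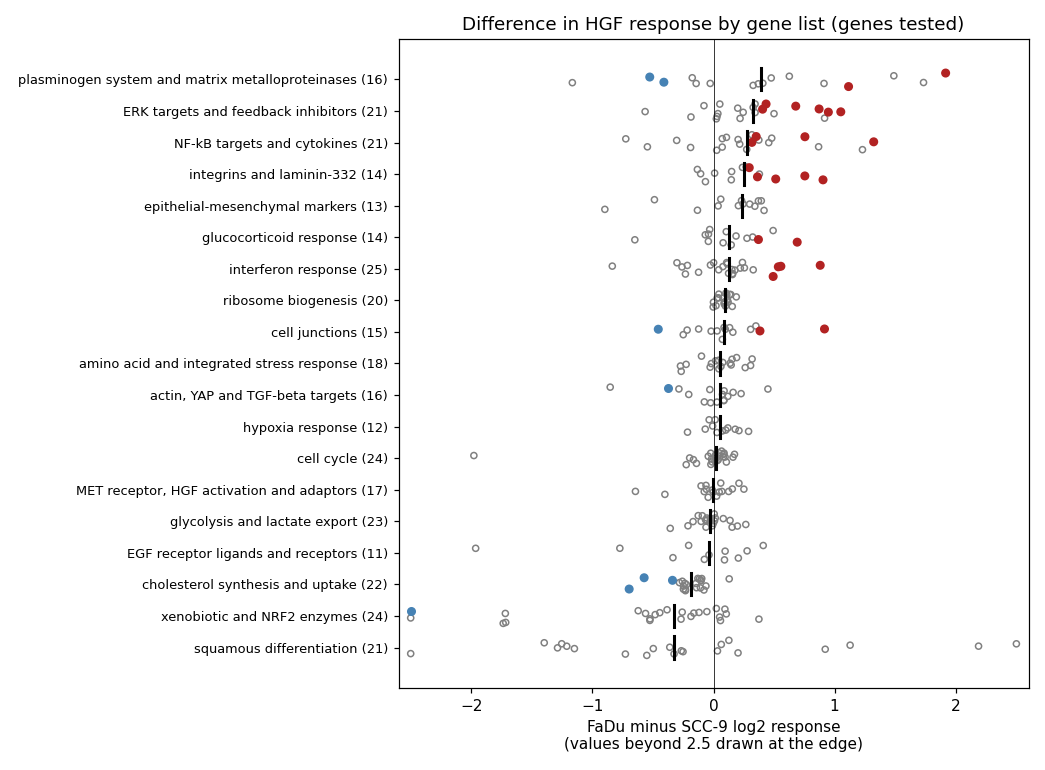
Each circle is 1 tested gene of a list, placed by its difference in log2 response, FaDu minus SCC-9, with the number of tested genes in brackets. Filled red circles were called higher and filled blue circles lower in FaDu, open circles were not called, and the black bar is the median of the list. The medians run from -0.33 for squamous differentiation to 0.39 for the plasminogen system and matrix metalloproteinases, and the lists of ERK targets, integrins, NF-kB and interferon genes hold called genes on the right side only.

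The called genes of cholesterol synthesis and uptake differed in the other direction. Of 22 genes, 3 were called with a lower response in FaDu and 0 with a higher one, against 0.511% and 0.808% of all genes tested. The median difference of the list was -0.18, and 21 of the 22 differences were negative. In FaDu 5 genes of the list fell, against 3.6% of all genes tested, and in SCC-9 0 were called. INSIG1 (ENSG00000186480.12, chromosome 7 from 155297776 to 155310235) retains the sterol sensor in the endoplasmic reticulum. INSIG1 had normalized counts of 2279, 2491 and 945 in FaDu controls 1 to 3 and 1142, 1781 and 565 with HGF, and of 805, 765 and 908 in SCC-9 controls and 741, 695 and 773 with HGF. FaDu replicate 3 stood far below the other numbers, and each FaDu pair fell. The log2 fold change was -0.74 in FaDu and -0.16 in SCC-9 (adjusted p = 0.353), with a difference of -0.57 (SE 0.11, adjusted p = 0.0275). HMGCS1, an early enzyme of cholesterol synthesis, fell in FaDu by 0.46 (difference -0.34, adjusted p = 0.0768). INSIG1 was not called without FaDu 1, SCC-9 1 or SCC-9 2 (highest adjusted p 0.139) and HMGCS1 was not called without FaDu 1, FaDu 3, SCC-9 1, SCC-9 2 or SCC-9 3 (highest adjusted p 0.327). Without SCC-9 HGF replicate 3 INSIG1 was the 1 gene of the list called.

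Cell junction genes were called in both directions, 2 higher and 1 lower of 15, with a median difference of 0.087. The shares over all genes tested were 0.808% and 0.511%. GJB2 (ENSG00000165474.6, chromosome 13 from 20187463 to 20193010), the gap junction protein connexin 26, rose in FaDu. GJB2 had normalized counts of 141, 188 and 148 in FaDu controls 1 to 3 and 304, 281 and 359 with HGF, and of 308, 272 and 344 in SCC-9 controls and 346, 269 and 358 with HGF. The FaDu groups were separate and the SCC-9 groups overlapped. Its difference was 0.92 (SE 0.15, adjusted p = 0.0121), and it was called in all 12 fits with 1 library left out. CLDN1, claudin 1 of the tight junction, fell in FaDu by 0.81 and had -0.35 in SCC-9, under the minimum size (difference -0.46, adjusted p = 0.0357). CLDN1 was not called without FaDu 1, FaDu 3, SCC-9 1 or SCC-9 2 (highest adjusted p 0.233). Of 16 actin, YAP and TGF-β target genes 1 was called, against 1.32% of all genes tested, and the median of that list was 0.051. The gene was MYL9, a myosin light chain, at -0.38 (adjusted p = 0.0768). MYL9 was not called without FaDu 1, FaDu 3, SCC-9 1, SCC-9 2 or SCC-9 3 (highest adjusted p 0.378).

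Since SCC-9 alone was grown with hydrocortisone, the glucocorticoid target genes were read as well. Of 14, 2 were called with a higher response in FaDu and 0 with a lower one, and the median difference was 0.12. The shares over all genes tested were 0.808% and 0.511%. FKBP5, the co-chaperone of the glucocorticoid receptor, is a standard glucocorticoid target. FKBP5 had normalized counts of 1569, 1567 and 1702 in FaDu controls 1 to 3 and 1774, 1682 and 1719 with HGF, and of 11749, 13822 and 14804 in SCC-9 controls and 9965, 11972 and 11427 with HGF. SCC-9 stood far above FaDu in both arms, and each SCC-9 pair went down. The difference was 0.37 (adjusted p = 0.0263). MT2A, a metallothionein, rose in FaDu by 0.87 against 0.18 in SCC-9 (difference 0.69, adjusted p = 0.0246). TSC22D3 fell in both lines (-0.47 and -0.40) and ANGPTL4 rose in both (1.33 and 0.84), without a call on the difference. FKBP5 was not called without FaDu 1 or SCC-9 3 (highest adjusted p 0.163) and MT2A was not called without FaDu 1 or SCC-9 2 (highest adjusted p 0.141). The part of hydrocortisone in these values was not tested.

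Among genes with a lower response in FaDu, GRAMD1B (ENSG00000023171.17, chromosome 11 from 123358428 to 123627774), a protein that carries cholesterol from the plasma membrane, rose in SCC-9. GRAMD1B had normalized counts of 30.5, 87.6 and 38.6 in FaDu controls 1 to 3 and 25.1, 47.4 and 38.8 with HGF, and of 1913, 1930.4 and 1330.5 in SCC-9 controls and 3457, 3432 and 2631 with HGF. The SCC-9 groups were separate, and FaDu held few counts. SCC-9 rose by 0.89 on the log2 scale (adjusted p = 8.95e-05) and FaDu changed by -0.47 (adjusted p = 0.13), a difference of -1.35 (SE 0.20, adjusted p = 0.00705). HES2 (ENSG00000069812.11, chromosome 1 from 6412418 to 6424670), a repressor of the HES family, fell in FaDu only. HES2 had normalized counts of 139, 174 and 97.9 in FaDu controls 1 to 3 and 56.7, 98.8 and 39.8 with HGF, and of 5950, 7120.3 and 7494 in SCC-9 controls and 6008, 7095 and 7170.5 with HGF. FaDu HGF replicate 2 was just above the lowest FaDu control, each FaDu pair fell, and SCC-9 stood far above at a level that hardly moved. The difference was -1.07 (SE 0.13, adjusted p = 0.0022). Both genes were called in all 12 fits with 1 library left out.

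ESPN, the actin-bundling protein espin, fell in FaDu. ESPN had normalized counts of 50.5, 44.3 and 16.9 in FaDu controls 1 to 3 and 17.7, 19.2 and 8.73 with HGF, and of 701, 883 and 795 in SCC-9 controls and 711, 963 and 922 with HGF. One FaDu control, number 3, lay below the other 2 and under 2 of the HGF libraries, while each pair fell. The difference was -1.41 (SE 0.23, adjusted p = 0.0114), and ESPN was not called without FaDu 1 (highest adjusted p 0.155). KRT23, a stress-linked keratin, WNT5B, a Wnt ligand, and KIAA1211L fell in FaDu as well, with differences of -1.21 (adjusted p = 0.0344), -0.97 (adjusted p = 0.0956) and -0.90 (adjusted p = 0.0579). KRT85, a hair keratin, fell in FaDu with a difference of -1.0 (adjusted p = 0.0993). STYK1, a kinase-like membrane protein, rose in SCC-9 by 0.63 and had -0.39 in FaDu (difference -1.02, adjusted p = 0.0214). KRT23 was not called without FaDu 1, SCC-9 2 or SCC-9 3 (highest adjusted p 0.426), STYK1 was not called without FaDu 1, SCC-9 2 or SCC-9 3 (highest adjusted p 0.117), KRT85 was not called without FaDu 1, FaDu 3, SCC-9 1, SCC-9 2 or SCC-9 3 (highest adjusted p 0.469) and KIAA1211L was not called without FaDu 1, FaDu 3, SCC-9 1, SCC-9 2 or SCC-9 3 (highest adjusted p 0.408), and WNT5B was called in none of the 12 fits.

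Of the 8 most negative differences among called genes, 7 belonged to genes with FaDu signal in SCC-9 HGF replicate 3. The exception was SFRP1, a secreted inhibitor of Wnt ligands outside the rule for named genes and chosen after its values were seen. SFRP1 had normalized counts of 0, 15.1 and 20.7 in FaDu controls 1 to 3 and 0.93, 0 and 1.94 with HGF, and of 5407, 4894 and 3904 in SCC-9 controls and 5719, 5328 and 4406 with HGF. The FaDu libraries held few counts and only pairs 2 and 3 fell, and its fitted difference was -3.56 (adjusted p = 0.0253), or -3.53 without SCC-9 HGF replicate 3 (adjusted p = 0.055). PRAME, a cancer-testis antigen, is the plainest case. PRAME had normalized counts of 1227, 1566 and 1572 in FaDu controls 1 to 3 and 1151, 1364 and 1564 with HGF, and of 0, 0 and 0 in SCC-9 controls and 0, 0 and 25.6 with HGF. It was at 0 in 5 of the 6 SCC-9 libraries, and 1.77% of the FaDu level would make 97.6% of the value in the last. Its fitted difference of -6.15, which depends on the prior count of the fit (adjusted p = 0.0196), became -0.088 without that library (adjusted p = 1). MGST1, a glutathione transferase of membranes, was the 1 called gene of the xenobiotic list. MGST1 had normalized counts of 7858, 7431 and 7141 in FaDu controls 1 to 3 and 7772, 7116 and 6270 with HGF, and of 5.75, 9.53 and 6.13 in SCC-9 controls and 2.87, 1.89 and 136 with HGF. It was between 1.89 and 9.53 in the other SCC-9 libraries. Its difference of -2.65 (adjusted p = 0.0728) turned to 1.56 without SCC-9 HGF replicate 3 (adjusted p = 0.547).

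Expected FaDu signal of over 50% of the count in SCC-9 HGF replicate 3 was found for 8 of the 79 genes with a lower response and for 0 of the 125 with a higher one, and over 10% for 12 and 5. The 8 were PRAME, MGST1, MAGEA4, EPDR1, GPX2, SPG20, IVD and LDOC1, named after their values were seen. EPDR1 and GPX2 were also in the rule for named genes, with differences of -2.56 (adjusted p = 0.0244) and -1.66 (adjusted p = 0.0728) that became -0.85 (adjusted p = 0.916) and -0.67 (adjusted p = 0.858); EPDR1 also overlaps other annotated genes on the same strand. HTRA3, a secreted protease, had 32% expected FaDu signal, fell in FaDu by 1.27 and kept its call without the library (-1.56 with it, adjusted p = 0.0619, and -1.80 without, adjusted p = 0.0999). It was not called without FaDu 1, FaDu 3, SCC-9 1, SCC-9 2 or SCC-9 control 3 (highest adjusted p 0.373).

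**Figure D4:**
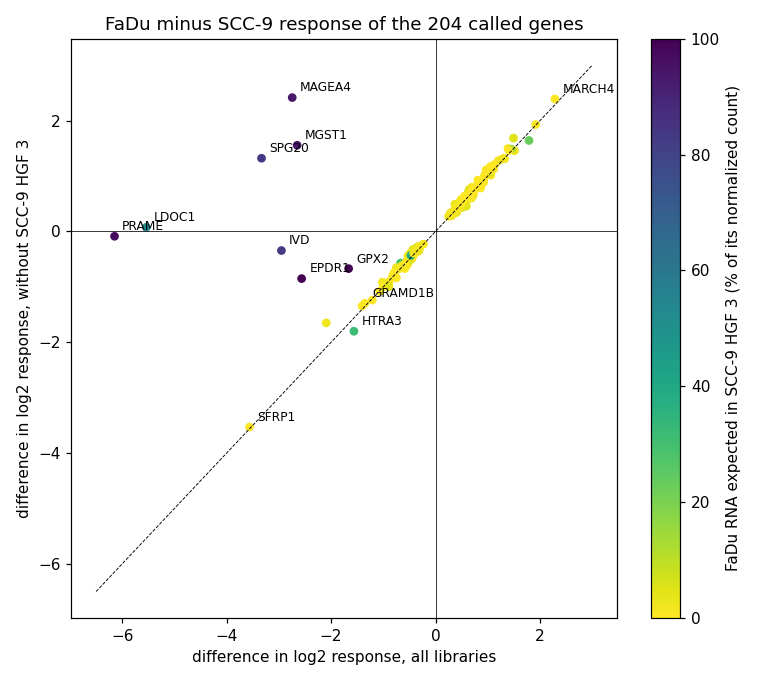
The difference in log2 response, FaDu minus SCC-9, of the 204 called genes with all libraries (x axis) and without SCC-9 HGF replicate 3 (y axis), coloured by the share of the gene's normalized count in that library that 1.77% of the FaDu level would make. The dashed line marks equal values. Yellow points, with little expected FaDu signal, SFRP1 among them, lie near the line, whereas PRAME, LDOC1, MGST1, MAGEA4, SPG20, IVD, EPDR1 and GPX2, the darkest points, leave it toward 0 or cross to positive values.

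Many detoxifying enzymes and squamous differentiation genes fell in FaDu. The difference between the lines was called for 1 gene of the former, MGST1, and for 0 of the latter, against 1.32% of all genes tested. Of 24 xenobiotic and NRF2 enzymes 15 fell in FaDu and 3 in SCC-9 (1 without SCC-9 HGF replicate 3). In FaDu 0 rose and in SCC-9 1 (MGST1, 0 without that library), and the median difference was -0.33. Over all genes tested 3.6% fell in FaDu and 1.41% in SCC-9. CYP1A1, CYP1B1 and UGT1A6, enzymes that handle aromatic carcinogens, fell in both lines. CYP1B1 had -0.62 and -0.68, with a difference of 0.057 (95% interval -0.30 to 0.41). AKR1C1, an aldo-keto reductase, fell in FaDu by 0.75 and had -0.23 in SCC-9 (difference -0.52, adjusted p = 0.449); the AKR1C genes are close copies, and reads may be split between them. Expected FaDu signal in SCC-9 HGF replicate 3 was 37.8% of the count for UGT1A6 and 24% for AKR1C1, and their differences were 0.05 and -0.52 with that library and 0.015 and -0.52 without it.

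Of 21 squamous differentiation genes 7 fell and 1 rose in FaDu, and 2 fell in SCC-9 (0 without SCC-9 HGF replicate 3). Over all genes tested 3.6% fell and 2% rose in FaDu, and 1.41% fell in SCC-9. The median difference of the list was -0.33, and 7 of its genes had an unadjusted p under 0.05. On the difference edgeR called 0 of the 21, against 2 by DESeq2. KRT4 and KRT13, the keratin pair of mucosal epithelium, fell in FaDu (-1.43 and -1.31) and had -0.037 and -0.10 in SCC-9, with adjusted p values of 0.244 and 0.359 for the difference. For both, 1.77% of the FaDu level would make at least the whole count in SCC-9 HGF replicate 3, and without it their differences changed from -1.40 and -1.21 to -1.10 and -0.96. The SPRR2 genes are near-identical copies, and SPRR2A (4.07) and SPRR2D (-4.79) had opposite differences without a call, so their values are uncertain.

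In several lists no difference was called by edgeR. Over all genes tested the share called was 1.32%, so 0 calls in a list of this size say nothing particular about it. Glycolysis and lactate export had 0 of 23 genes called by edgeR and by DESeq2, with 6 at an unadjusted p under 0.05, a median difference of -0.026 and 0 genes called in either line. HK2, the hexokinase of many tumours, had log2 fold changes of 0.40 in FaDu and 0.13 in SCC-9, with a difference of 0.27 (95% interval 0.11 to 0.42, adjusted p = 0.142). LDHA, which turns pyruvate into lactate, had 0.20 and 0.0071, with a difference of 0.20 (95% interval 0.026 to 0.37). GAPDH differed by -0.0023 (95% interval -0.15 to 0.14). The edgeR test likewise called 0 of 12 hypoxia genes (median 0.051, 1 at an unadjusted p under 0.05, 0 by DESeq2), 0 of 24 cell cycle genes (0.017, 1 and 0), 0 of 20 ribosome biogenesis genes (0.10, 1 and 0, with 18 of 20 positive), 0 of 18 amino acid and integrated stress response genes (0.052, 4 and 0) and 0 of 11 EGF receptor ligands and receptors (-0.038, 0 and 0). Of 13 epithelial-mesenchymal markers edgeR called 0 and DESeq2 3, all higher, with 7 at an unadjusted p under 0.05 and a median of 0.23.

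MET (ENSG00000105976.14, chromosome 7 from 116672390 to 116798386), the receptor itself, was not called. MET had normalized counts of 5794, 5571 and 6459 in FaDu controls 1 to 3 and 6154, 6227 and 7885 with HGF, and of 12407, 11296 and 11088 in SCC-9 controls and 12063, 10520 and 10549 with HGF. SCC-9 stood above FaDu in every library, and within each line the groups overlapped. Each FaDu pair went up and each SCC-9 pair down, and the difference was 0.25 (95% interval 0.095 to 0.41, adjusted p = 0.183). For the receptor, HGF activation and adaptors, 0 of 17 genes were called by edgeR, against 1.32% of all genes tested, and 1 by DESeq2. In the list 4 genes had an unadjusted p under 0.05. The median difference of the list was -0.0029, and 0.0033 with DESeq2 size factors.

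SLC6A9, GBP1, JDP2 and TNFAIP2 fell in both lines. In FaDu their log2 fold changes were -0.56, -0.66, -0.47 and -0.65. The 4 values in SCC-9 were -0.44, -0.63, -0.62 and -0.72, in the same order. The differences were -0.12 for the glycine transporter SLC6A9 (95% interval -0.37 to 0.14), -0.026 for the guanylate-binding protein GBP1 (95% interval -0.33 to 0.28), 0.14 for the AP-1 repressor JDP2 (95% interval -0.15 to 0.44) and 0.072 for TNFAIP2 (95% interval -0.15 to 0.29). The adjusted p values were 0.836, 0.985, 0.828 and 0.896, so no difference was shown, within the limits of those intervals. Expected FaDu signal in SCC-9 HGF replicate 3 was 11% of the count for JDP2 and 23.8% for TNFAIP2, with differences of 0.15 and -0.016 without that library. The fall of SLC6A9 in SCC-9 was then no longer called (adjusted p = 0.102).

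Levels before HGF differed as well. Of the 125 genes with a higher response in FaDu, 98 (78.4%) had a higher control level in SCC-9, against 46 of 79 (58.2%) with a lower response and 50.7% of all genes tested. The median log2 ratio of the SCC-9 to the FaDu control level was 1.36, 0.37 and 0.017. The control libraries enter both the level and the response, so these shares are descriptions and have no test.

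The Detroit 562 libraries took no part in the estimate of the difference. Of the 125 genes with a higher response in FaDu, 55 rose in Detroit 562 (44%, against 7.13% of all genes tested) and 16 fell (12.8%, against 14.4%). Of the 79 with a lower response, 34 fell (43%) and 8 rose (10.1%). Among those 8 were PRAME, LDOC1 and MAGEA4, at 0 counts in the 3 Detroit 562 controls and at 4, 4 and 21 counts in Detroit 562 HGF replicate 3, with no more than 1 in the other HGF libraries. That library held 15 of 17 FaDu marker genes, at 0.469% of the FaDu level, against 0.105% to 0.289% in the other 5 Detroit 562 libraries, and the source was not tested. Over the 71 genes left without the 8 that had over 50% expected FaDu signal in SCC-9 HGF replicate 3, 33 fell and 5 rose in Detroit 562, with a median of -0.36. The median log2 fold change in Detroit 562 was 0.33, -0.29 and -0.0081 over the 125, the 79 and all genes tested. In that line DUSP6 rose by 1.52, PHLDA1 by 1.57, TNFAIP3 by 1.44 and VEGFC by 1.04, and INSIG1 fell by 1.05 and CLDN1 by 1.02. GJB2, at -0.074, IFIT2, at -0.19, and HES2, at -0.21, were not called there, and CXCL8, at 0.30, was under the minimum size. Detroit 562 shared the estimate of the spread with the other lines, and it was grown in the same medium as FaDu. Of the 125 genes, 75 rose in FaDu, and of the 79, 39 fell there. The Detroit 562 shares over all genes that rose or fell in FaDu were not examined. The shares above therefore do not tell a trait of the difference from one of the FaDu response.

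**Figure D5:**
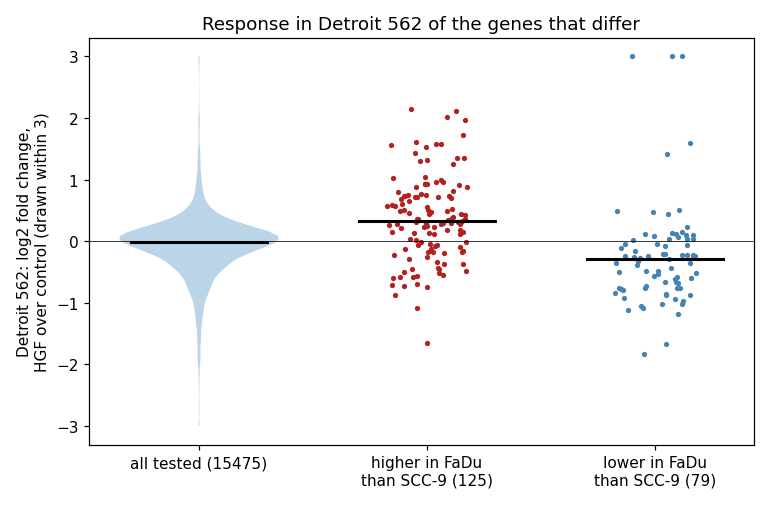
Log2 fold change with HGF over control in Detroit 562 of all 15475 genes tested (shaded shape), of the 125 genes with a higher response in FaDu than in SCC-9 (red points) and of the 79 with a lower one (blue points). The bars are medians, at -0.0081, 0.33 and -0.29, and values beyond 3 are drawn at 3, among the blue points those of PRAME, LDOC1 and MAGEA4. Both sets spread over positive and negative values, with the red points centred above and the blue points below 0.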

How the data were processed

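Libraries of mRNA, captured from total RNA with a stranded kit, were sequenced from 18 samples, 3 for each line and treatment, after 750000 cells per well were seeded. Per the labels and the study's methods, the authors trimmed reads with cutadapt (1.16 in the processing notes), aligned them with STAR 2.5.2b to GRCh38 with a GENCODE annotation and counted reads with bedtools over whole gene extents, so a read in overlapping genes of 1 strand counts for each (2498 genes of the table, and 14.2% of those tested, including IL18R1, CEACAM6, EPDR1 and SOD2). The deposited table holds raw read counts of 19901 protein-coding genes, with replicates not pooled. Counts were analysed as deposited in edgeR 4.0.16 (R 4.3.3) with TMM normalization, filterByExpr on the 6 groups (15475 genes kept) and a quasi-likelihood fit of all 18 libraries with a response and a replicate block for each line. The difference was called at a Benjamini-Hochberg adjusted p below 0.1 and a response in 1 line at that and a log2 change of 0.4 or more in size. Pairing was checked over all tested genes: deviations from the mean of the group correlated at 0.324, 0.383 and 0.511 between the control and the HGF library of 1 number in FaDu, at 0.282, 0.168 and 0.247 in SCC-9, and at -0.434 to 0.122 between different numbers, so the numbers were taken to mark pairs. Ratios within a pair used a pseudocount of 1. DESeq2 1.42.0 served as an alternative, and the procedure was tested on simulated data. Depth was 37644764 to 44003970 counts, and normalized counts are counts at the mean effective library size. A few counts of a gene in a library limit its precision, so fold changes of genes near 0 are uncertain.

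The genes and lists were chosen with earlier results of these data known. Named were the 12 genes with the largest positive and the 12 with the largest negative difference among called genes with separate pair ratios and a mean normalized count of at least 50 in a group, the members of the 19 lists, MET, SLC6A9, GBP1, JDP2, TNFAIP2, DUSP6, IER3, GJB2 and ITGB5, and genes called in both lines in opposite directions. A few genes that these rules name are not reported here. The lists cover MET and its adaptors, ERK targets, EGF receptor ligands, integrins, proteases, actin and YAP targets, glycolysis, hypoxia, cholesterol, amino acids, interferon, NF-kB, squamous differentiation, junctions, glucocorticoids, xenobiotics, cell cycle, ribosome biogenesis and epithelial-mesenchymal markers. Gene positions are those of the deposited table, and promoters came from RefSeq (GRCh38.p14). Other normalizations, filters, dispersion settings, thresholds and the fit without a block or without 1 library were tried as well.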

Additional observations from a re-analysis of the deposited data

Results flagged for a closer look

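The response to HGF differed between FaDu and SCC-9 by the interaction test itself in 51 of the named genes, which is why each is given here with its difference in log2 response, FaDu minus SCC-9. Since most of these genes were named because they were called, the number says nothing on its own.

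Among ERK targets the difference was 0.948 for DUSP6, 1.05 for PHLDA1, 0.871 for IER3, 0.434 for DUSP7, 0.679 for EGR1 and 0.405 for JUNB. For adhesion, matrix and protease genes it was 0.904 for ITGB5, 0.513 for ITGA2, 0.295 for ITGA6, 0.363 for ITGB4, 1.92 for MMP9, -0.527 for PLAT, -0.41 for MMP14 and -0.378 for MYL9. For inflammatory and interferon genes it was 1.32 for CXCL8, 0.754 for TNFAIP3, 0.317 for NFKBIA, 0.352 for SOD2, 0.881 for IFIT2, 0.556 for IFIT1, 0.492 for IFIT3 and 0.535 for DDX58.

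For sterol, junction and glucocorticoid genes it was -0.573 for INSIG1, -0.339 for HMGCS1, 0.916 for GJB2, -0.456 for CLDN1, 0.37 for FKBP5 and 0.691 for MT2A. Among the largest positive differences it was 2.29 for MARCH4, 1.79 for KIAA1644, 1.51 for RASSF10, 1.49 for IL18R1, 1.45 for CEACAM6, 1.41 for APLN, 1.39 for ZBED2, 1.31 for HIST1H3H, 1.27 for IL1R2 and 1.2 for VEGFC. Among the largest negative ones it was -6.15 for PRAME, -2.65 for MGST1, -2.56 for EPDR1, -1.66 for GPX2, -1.56 for HTRA3, -1.41 for ESPN, -1.35 for GRAMD1B, -1.21 for KRT23, -1.07 for HES2, -1.02 for STYK1, -1.0 for KRT85, -0.969 for WNT5B and -0.9 for KIAA1211L. Of these, PRAME, MGST1, EPDR1 and GPX2 had an expected FaDu signal of over 50% of their count in SCC-9 HGF replicate 3.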

How the results depend on the processing

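The replicate block decided whether genes were called. With no replicate block edgeR called 0 genes on the difference, 4 in FaDu and 0 in SCC-9, against 204, 867 and 305, with 337, 1247 and 641 genes at an unadjusted p under 0.05. With no block and SCC-9 HGF replicate 3 left out together, an alternative chosen after seeing the data, 0 were called on the difference, with 272 at an unadjusted p under 0.05. At an adjusted p below 0.05 and a log2 value of at least 1 in size the counts were 28, 114 and 25. With 1 library left out in turn the count on the difference ran from 45 (without FaDu control 1 or HGF 1) to 321 (without FaDu control 2 or HGF 2), that in FaDu from 455 (without FaDu HGF 1) to 1063, and that in SCC-9 from 69 (without SCC-9 control 3 or HGF 3) to 334 (without FaDu HGF 2). Under the other normalizations, filters and dispersion settings, DESeq2, the 12 libraries alone, genes without a same-strand overlap and a minimum difference of 0.4, the count on the difference ran from 156 to 288, within 1.5 times of 204.

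Of the 51 called genes named, 11 stayed called in all 12 fits with 1 library left out: APLN, CXCL8, DDX58, DUSP6, GJB2, GRAMD1B, HES2, IER3, IFIT2, ITGB5 and VEGFC. Calls lost numbered 35 without FaDu control 1 or HGF 1 and 2 without FaDu control 2 or HGF 2, 20 without FaDu control 3 or HGF 3, 23 and 29 without a library of SCC-9 number 1 or 2, and 31 and 30 without SCC-9 control 3 or HGF 3. MGST1 alone changed sign, to 1.56 without SCC-9 HGF 3 or control 3 and with a lowest value of -3.52 without SCC-9 HGF 2. With 1 library of a pair left out, 2 pairs of that line remain, and the cause of each lost call was not tested. Without the block all 51 lost their calls and kept their sign. Genes with few counts in 1 line, among them MARCH4, ZBED2, APLN, MMP9, KRT23, KRT85, WNT5B and ESPN, are limited by depth there.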

Other observations

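Further genes that differed lay outside the lists and the rule for named genes and were chosen after their values were seen. NT5E (ENSG00000135318.11, chromosome 6 from 85449584 to 85495791), the surface enzyme CD73 that makes adenosine, had the smallest adjusted p of the table. NT5E had normalized counts of 237, 177 and 808 in FaDu controls 1 to 3 and 733, 415 and 2238 with HGF, and of 10581, 8778 and 7779.6 in SCC-9 controls and 12800, 10403 and 10665 with HGF. It rose in every pair of both lines, from a far lower level in FaDu. The log2 fold change was 1.46 in FaDu and 0.32 in SCC-9, and the difference 1.14 (SE 0.11, adjusted p = 0.000959), or 1.21 without SCC-9 HGF replicate 3 (adjusted p = 0.00133). CD44, the hyaluronan receptor, rose in FaDu by 0.92 against 0.17 in SCC-9 (difference 0.76, adjusted p = 0.0252). AXL, a receptor tyrosine kinase linked to invasion, rose by 0.48 against -0.042 (difference 0.53, adjusted p = 0.0246). IL7R, the receptor of interleukin 7, rose by 0.72 against -0.30 (difference 1.02, adjusted p = 0.00286), and NRG1, a ligand of ERBB3 and ERBB4, by 0.74 against 0.11 (difference 0.63, adjusted p = 0.0264). All 5 kept their call without SCC-9 HGF replicate 3.

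The transcription factor gene ETS1, a known effector of ERK in invading cells, rose in FaDu. ETS1 had normalized counts of 2055, 2327 and 4043 in FaDu controls 1 to 3 and 4132, 3437 and 6552 with HGF, and of 8640.2, 7200.3 and 6932 in SCC-9 controls and 9271, 7177 and 7570.2 with HGF. Its difference was 0.68 (SE 0.10, adjusted p = 0.00516). The matrix genes COL12A1 and LTBP2, for a fibril-associated collagen and a binder of latent TGF-β, rose in FaDu by 0.81 and 0.98, with 0.087 and 0.051 in SCC-9 and differences of 0.72 (adjusted p = 0.00707) and 0.93 (adjusted p = 0.00613). Among genes with a lower response in FaDu, HSPB1, a small heat shock protein, fell in FaDu by 0.81 (difference -0.55, adjusted p = 0.0107), CRABP2, which carries retinoic acid to the nucleus, by 0.76 (difference -0.59, adjusted p = 0.0211), and the Wnt ligand WNT9A by 0.64 (difference -0.89, adjusted p = 0.00233). These 3 also kept their call without SCC-9 HGF replicate 3, with adjusted p values of 0.0171, 0.0151 and 0.0115. KRT6B and KRT6C, near-identical keratin genes whose reads may be shared, fell in FaDu and differed by -0.65 and -0.64, but lost their call without SCC-9 HGF replicate 3 (adjusted p = 0.142 and 0.151).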
